A study of Homo sapiens with 12 samples.

Results

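The CDKN2A and MTAP locus on the short arm of chromosome 9 was examined in MIAPaCa2 cells, an established human pancreatic ductal adenocarcinoma line, for chromatin opened to the Tn5 transposase (ATAC-seq). Its 5 members, of 59098 genes in the RefSeq table, were CDKN2A, CDKN2B, CDKN2B-AS1, MTAP and DMRTA1, taken by name. A peak was assigned to a member if it overlapped the GRCh38 gene span extended by 5 kb on both sides. Parental cells and cells made resistant by continuous culture in sodium oxamate, a competitive inhibitor of lactate dehydrogenase A (LDHA), were each profiled in the absence and in the presence of oxamate. The 4 groups were parental untreated, parental treated, resistant untreated and resistant treated cells, with 3 libraries each. The resistant cells were a polyclonal population of surviving colonies, untreated cells received phosphate-buffered saline, and nothing in the labels says that the 3 libraries of a group came from separate cultures, so p-values measure the spread between libraries, which may be technical. All groups derive from the same line. The lists held between 45748 and 62414 peaks each, and read depth is not given in them.

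CDKN2A encodes 2 unrelated tumour suppressors from overlapping exons. One is p16INK4A, which binds CDK4 and CDK6 and so keeps the retinoblastoma protein active, and the other is p14ARF, which restrains the ubiquitin ligase MDM2. CDKN2B next to it encodes p15INK4B, a second inhibitor of CDK4 and CDK6, and the long noncoding RNA CDKN2B-AS1 (ANRIL) is transcribed across CDKN2B from the opposite strand. MTAP cleaves methylthioadenosine, a by-product of polyamine synthesis, for the salvage of methionine, and DMRTA1 encodes a DM-domain transcription factor. The locus is often lost from both chromosomes in pancreatic cancer, and MIAPaCa2 is known as a line that lacks CDKN2A and MTAP. The ends of that deletion are not in the files and were not compared with the peaks. A peak list records where fragments pile up and does not count DNA copies, so lost DNA and closed chromatin cannot be told apart in these data.

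The start regions of MTAP, CDKN2A and CDKN2B are shown for their CpG content, described below. Each is the RefSeq window of 300 bases, from 250 before to 50 after an annotated start (GRCh38.p14), 5′ to 3′ on the strand of the gene, with CpG dinucleotides in capitals. CDKN2A has 2 such windows, of which the one at lower coordinates lies at the start of the p16INK4A transcript and the other at the far upstream end of the gene. CDKN2D, which encodes a further INK4 inhibitor on chromosome 19, is added as a relative whose window was open.
MTAP, chr9:21802386-21802685, plus strand: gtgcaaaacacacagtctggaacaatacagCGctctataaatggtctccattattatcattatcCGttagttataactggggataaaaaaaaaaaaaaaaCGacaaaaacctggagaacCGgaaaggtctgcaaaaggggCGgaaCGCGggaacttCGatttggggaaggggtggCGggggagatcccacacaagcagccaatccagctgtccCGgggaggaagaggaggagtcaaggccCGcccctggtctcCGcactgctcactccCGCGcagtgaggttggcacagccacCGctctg
CDKN2A, p16INK4A start, chr9:21974808-21975107, minus strand: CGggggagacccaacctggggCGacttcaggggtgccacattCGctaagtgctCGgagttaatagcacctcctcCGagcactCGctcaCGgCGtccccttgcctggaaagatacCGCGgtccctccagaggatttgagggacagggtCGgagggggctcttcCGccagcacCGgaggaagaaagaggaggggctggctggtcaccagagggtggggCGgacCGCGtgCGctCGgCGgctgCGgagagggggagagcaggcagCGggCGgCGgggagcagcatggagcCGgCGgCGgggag
CDKN2A, upstream start, chr9:21995275-21995574, minus strand: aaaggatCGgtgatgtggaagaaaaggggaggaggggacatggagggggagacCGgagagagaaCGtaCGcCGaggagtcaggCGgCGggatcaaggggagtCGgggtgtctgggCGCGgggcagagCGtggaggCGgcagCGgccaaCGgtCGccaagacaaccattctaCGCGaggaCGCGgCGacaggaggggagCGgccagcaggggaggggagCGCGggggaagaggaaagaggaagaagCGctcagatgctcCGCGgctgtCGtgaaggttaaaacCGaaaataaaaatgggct
CDKN2B, chr9:22009256-22009555, minus strand: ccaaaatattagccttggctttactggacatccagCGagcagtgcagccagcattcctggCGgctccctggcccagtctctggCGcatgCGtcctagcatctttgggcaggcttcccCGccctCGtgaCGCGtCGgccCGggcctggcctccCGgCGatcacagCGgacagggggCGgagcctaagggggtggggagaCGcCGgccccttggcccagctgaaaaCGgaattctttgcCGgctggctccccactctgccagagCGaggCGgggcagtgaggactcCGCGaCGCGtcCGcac
CDKN2D, chr19:10568930-10569229, minus strand: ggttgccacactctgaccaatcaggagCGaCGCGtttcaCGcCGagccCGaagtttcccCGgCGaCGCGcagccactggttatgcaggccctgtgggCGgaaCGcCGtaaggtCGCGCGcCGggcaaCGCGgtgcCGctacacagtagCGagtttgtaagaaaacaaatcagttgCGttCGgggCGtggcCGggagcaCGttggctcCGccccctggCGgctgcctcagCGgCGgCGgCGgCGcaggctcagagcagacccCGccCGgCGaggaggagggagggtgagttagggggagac

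CpG content differed between the windows. The MTAP window held 15 CpG at a GC content of 53%, the p16INK4A window 26 CpG at 69%, the upstream CDKN2A window 28 CpG at 63.3% and the CDKN2B window 25 CpG at 67.3%. The window of CDKN2B-AS1 held 36 CpG at 74% and that of DMRTA1 16 CpG at 62.3%. For comparison the CDKN2D window held 36 CpG at 68%. The SP1 core motif GGGCGG, searched on both strands, was present in each of these member windows except the upstream CDKN2A one, as it was in 45% of the 34961 windows of all genes. A window was called CpG-rich at a GC content of at least 55% and a ratio of observed to expected CpG of at least 0.6. By this definition both CDKN2A windows and those of CDKN2B and CDKN2B-AS1 were CpG-rich, whereas MTAP missed the GC limit and DMRTA1, at a ratio of 0.549, missed the CpG limit.

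No member had a peak in any library. CDKN2A (chromosome 9, 21967752 to 21995324) had 0 peaks in 3 of 3 parental untreated, 3 of 3 parental treated, 3 of 3 resistant untreated and 3 of 3 resistant treated libraries, within its exons, introns and 5 kb on each side. The same held for CDKN2B (22002903 to 22009313), CDKN2B-AS1 (21994791 to 22128142), MTAP (21802636 to 21941115) and DMRTA1 (22446824 to 22455740). CDKN2A, CDKN2B and CDKN2B-AS1 lie so close together that their extended spans overlap, and these zeros are therefore not independent of each other. From 5 kb below MTAP to 5 kb above DMRTA1, 663 kb in all, no list held a peak, although the lists admit weak peaks down to a -log10 q (q is the false discovery rate given by the peak caller) of 1.00. The count was 0 in each of the 12 libraries, so no difference between groups could be tested. Without read counts the upper limit of accessibility behind a list without a peak is unknown.

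An absent peak was common for genes at large and less common for protein-coding genes with a CpG-rich window. Of all 59098 genes, 30.4% had no peak in any library within the extended span, and of 18177 long noncoding RNA genes, the class of CDKN2B-AS1, 29.8% had none. Of 19974 protein-coding genes 9.15% had none. Among 10312 protein-coding genes with a CpG-rich window, to which CDKN2A and CDKN2B belong, the share was 2.61%. Of 12558 CpG-rich windows of protein-coding genes, 69.9% were overlapped by a peak in all 12 libraries, 79.9% in 6 or more and 15.3% in none. Of the windows of all coding genes, CpG-rich or not, 38.1% had no peak in any library, as the windows of CDKN2A, CDKN2B, MTAP and DMRTA1 had none. The 5 members, taken by name, lie next to each other, so these shares describe the background and carry no test.

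The empty stretch reached far beyond the members. The nearest region called in 6 or more libraries on the lower side ended at 20160826, 1.64 Mb from MTAP, and the nearest on the higher side began at 23515829, 1.06 Mb from DMRTA1. Between them lay 3.36 Mb without a peak in any of the 12 lists, so the stretch was the same whether regions of 1, 3 or 6 libraries were asked for. It held 66 annotated genes, of which 24 were protein-coding, 15 long noncoding RNA and 4 miRNA genes. Beside CDKN2A, CDKN2B, MTAP and DMRTA1 the coding genes were MLLT3, FOCAD, HACD4, KLHL9 and 16 interferon genes.

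**Figure D1:**
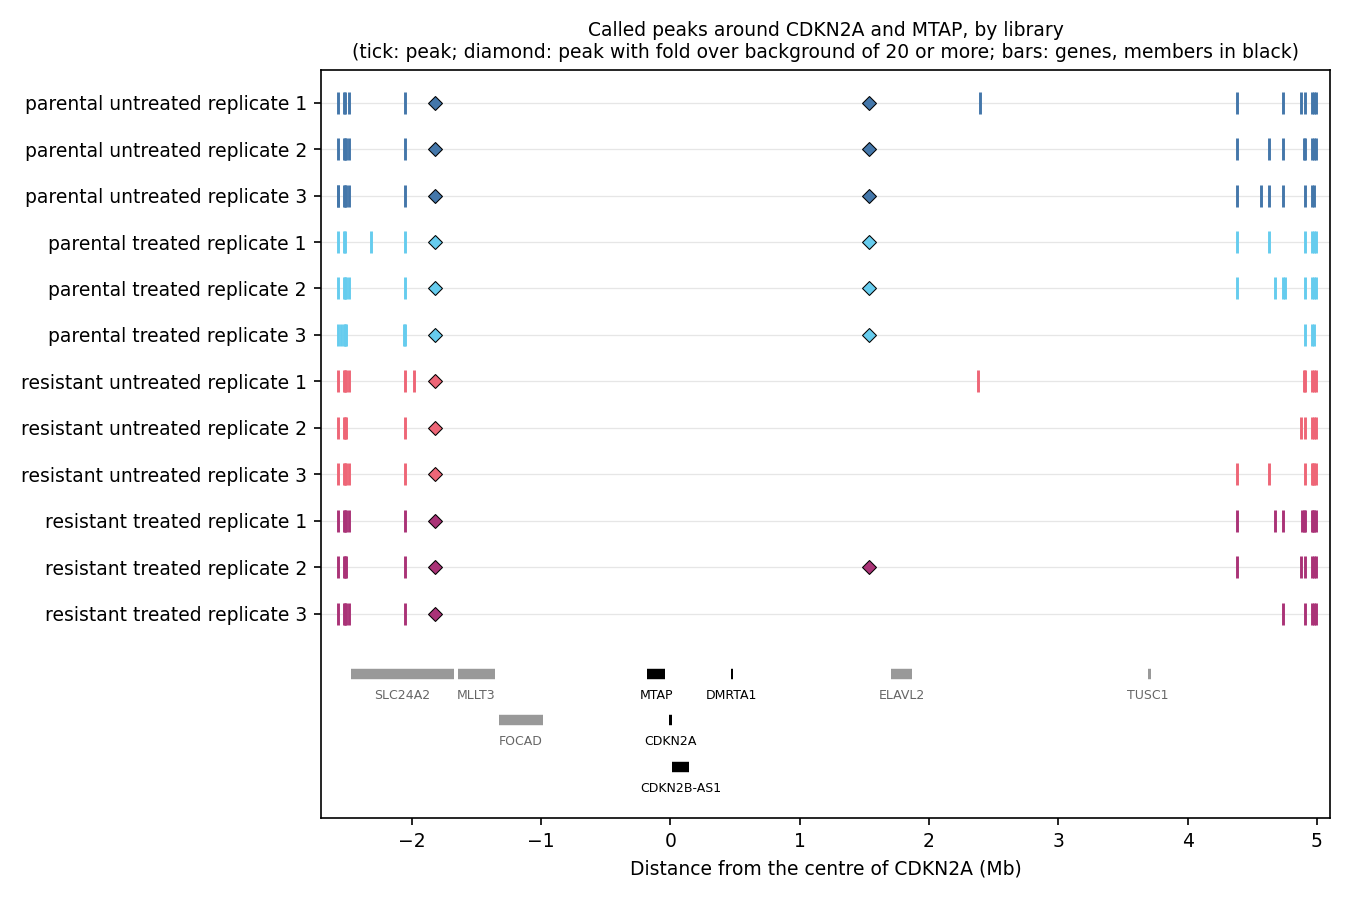
Peaks called in each of the 12 libraries (1 line each, coloured by group) against the distance from the centre of CDKN2A in Mb; ticks are peaks, diamonds are peaks with a fold over background of 20 or more, and bars below are gene spans with members in black (CDKN2B, inside the CDKN2B-AS1 span, is not drawn). Every line is empty from the lower diamonds, 1.64 Mb below MTAP, to at least the higher diamonds, 1.06 Mb above DMRTA1, which 7 libraries have.

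Genes around the members were empty as well. MLLT3, a subunit of transcription elongation complexes (20341669 to 20622499), FOCAD, which encodes focadhesin (20655625 to 20995950), HACD4, a fatty acid elongation enzyme (20999509 to 21031640), and KLHL9, an adaptor of a cullin ubiquitin ligase (21329665 to 21335404), had a peak in 0 of 12 libraries. Each of these 4 has a CpG-rich window, with 24, 39, 24 and 19 CpG in the order given. MIR31HG, the host of miR-31, had 39 CpG in its window and no peak. The noncoding genes CDKN2A-AS1 and LINC01239 had none either. IFNB1 and IFNE, interferon genes whose windows held 1 and 2 CpG, were likewise without a peak. The 13 coding IFNA genes of the cluster form a family of similar sequence, and the authors removed reads that map to several places. Whether this touched their spans was not tested, so they are uncertain. From MLLT3 to ELAVL2, 69 of 70 annotated genes and 25 of 25 coding genes had no peak within 5 kb in any library, and the exception was the long noncoding RNA gene LOC101929563, whose span holds the higher border of the stretch.

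Beyond that border the chromosome stayed sparse. ELAVL2, a neuronal RNA-binding protein (23690104 to 23850601), IZUMO3, a sperm protein (24542952 to 24545897), and TUSC1 (25676969 to 25678444) had no peak within 5 kb in any library, and a second stretch of 1.99 Mb without any peak held IZUMO3 and TUSC1. The next region called in 12 libraries on this side, overlapping CAAP1, began 4.44 Mb from DMRTA1. Its fold, the authors' ratio of pileup to local background, lay between 4.93 and 9.14. The nearest coding gene windows with a peak in 12 libraries were those of ACER2, 2.39 Mb below MTAP, with a fold between 4.62 and 8.11, and of IFT74, 4.49 Mb above DMRTA1, with a fold between 6.33 and 12.1. Between these, 32 windows of 26 coding genes had no peak in any library, 13 of them CpG-rich. The region overlapping CAAP1 also lies between these and touched none of the 32 windows. Over 3.36 Mb below the stretch the 12 lists gave 52 merged regions, 14 of them in all 12 libraries, with 11 coding genes wholly inside, and over the same length above it 12 regions, 0 of them in all 12, with 3 coding genes. The 24 coding genes between gave 0 regions.

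The length of the stretch was then set against the rest of the genome. Merging the 12 lists left 177870 stretches without a peak, and 4 were at least as long as this one, itself included. The other 3 touched no annotated gene. Of the 2170 stretches that held a whole coding gene this was the longest, at 3.36 Mb against a median of 40453 bp, and it held the most coding genes. The next in length was 3.07 Mb on chromosome X, with 2 coding genes, and the next in number held 14, in a cluster of casein and salivary protein genes on chromosome 4 and in the CT47A cluster on chromosome X. Of 25750 windows of 100 kb that touch a gene, 14.9% held no peak in any library. The 26 such windows wholly inside the stretch held none by construction, since the stretch was defined by the absence of peaks. These windows adjoin, so they are not 26 independent observations.

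**Figure D2:**
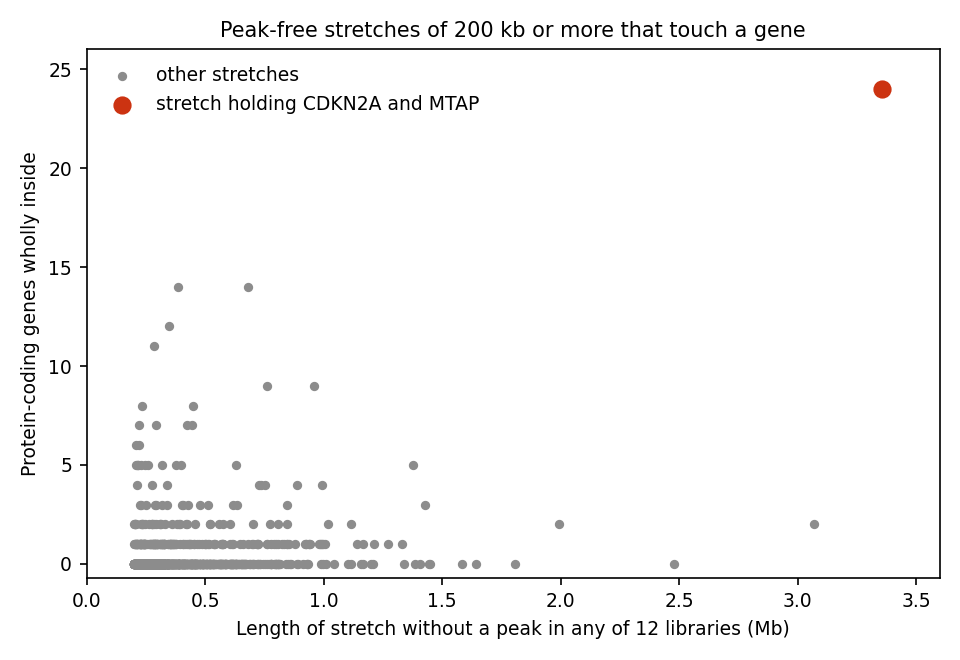
Number of protein-coding genes wholly inside each stretch without a peak in any of 12 libraries (vertical axis) against its length in Mb (horizontal axis), for the 1327 stretches of 200 kb or more that touch a gene. The stretch with CDKN2A and MTAP, at 3.36 Mb and 24 coding genes, stands apart from the others, none of which passes 3.07 Mb or 14 genes.

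The stretch was less unusual when rare regions were set aside, and within single lists. Between regions called in 6 or more libraries there were 43171 stretches, of which 22 (0.051%) were at least as long, 17 of them with a whole coding gene, and 8 held 24 or more coding genes. Within single lists the stretch that held CDKN2A was between 3.36 and 6.70 Mb long. It ranked between 2 and 14 by length, and between 2 and 9 by number of coding genes, among the 3067 to 3901 stretches with a coding gene. In the lists where it was 3.36 Mb long its rank by length lay between 7 and 14. Of the 178040 merged regions, 105931 were called in 1 library only. By construction 0 of these lay in the stretch, since it was bounded by the nearest peaks of any list.

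Genes whose pattern was most like that of CDKN2A were sought among coding genes with a CpG-rich window and no peak in any library within the extended span. Of 266 such genes that lay wholly in 1 stretch, 6 were in this stretch and 260 elsewhere, where the median stretch was 152 kb. The 8 in the longest stretches were CDKN2A itself, CDKN2B, FOCAD, HACD4, KLHL9 and MLLT3, all at 3.36 Mb, TUSC1 at 1.99 Mb and PRR20A on chromosome 13 at 1.38 Mb, a value its copies PRR20B to PRR20E shared. Each matched CDKN2A in 12 of 12 libraries by construction, since all were without a peak. Whether the removal of reads that map to several of these copies touched their spans was not tested, so they are uncertain.

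The genes that act with these inhibitors had peaks throughout. In a list of 19 genes of the pRb and MDM2 pathways, 19 had a peak within 5 kb in 12 of 12 libraries, where 70.7% of all coding genes did. The strongest peak at CDK4, a kinase that p16INK4A inhibits, had a fold between 6.38 and 9.08 with a median of 7.97, and at CDK6, the other such kinase, between 4.24 and 7.53 with a median of 5.97. At RB1, the retinoblastoma gene, the region over the lower-coordinate end of the gene was called in 12 libraries with a median fold of 6.70. The 1 RefSeq window listed for RB1, inside the gene (48476200 to 48476499), had a peak in 0 libraries. The cyclins CCND1, CCND2 and CCND3, which activate CDK4 and CDK6, had median folds of 6.50, 8.56 and 9.78.

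The 4 INK4 inhibitors thus fell into 2 pairs. CDKN2A and CDKN2B had no peak, whereas CDKN2C (chromosome 1, 50960745 to 50974634) had a fold between 6.64 and 10.5 at its strongest peak and CDKN2D (chromosome 19, 10566460 to 10568979) between 5.28 and 7.48, each in 12 of 12 libraries. The CIP/KIP inhibitors, which act on a wider set of kinases, were also called in 12 of 12 libraries, with median folds of 4.98 at CDKN1A, 6.37 at CDKN1B and 5.51 at CDKN1C. On the side of p14ARF, MDM2 and its relative MDM4 had peaks in 12 of 12 libraries with median folds of 5.60 and 9.12. The authors' fold compares pileup with background inside 1 list, and such values describe each gene and do not rank genes by openness.

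Of 15 genes of methionine salvage, polyamine synthesis and methylation, 15 had a peak within 5 kb in 12 of 12 libraries, where 70.7% of all coding genes did. MRI1, APIP, ENOPH1 and ADI1, the enzymes that follow MTAP in the salvage route, had median folds of 7.51, 6.48, 6.32 and 7.32. PRMT5, an arginine methyltransferase that methylthioadenosine inhibits, had a fold between 8.83 and 12.5, and its partners WDR77, CLNS1A and RIOK1 had medians of 7.11, 9.07 and 8.71. MAT2A, which makes S-adenosylmethionine, had a median of 5.74. The window of MRI1 itself was called in 10 libraries, 2 of 3 in each parental group and 3 of 3 in each resistant group.

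**Figure D3:**
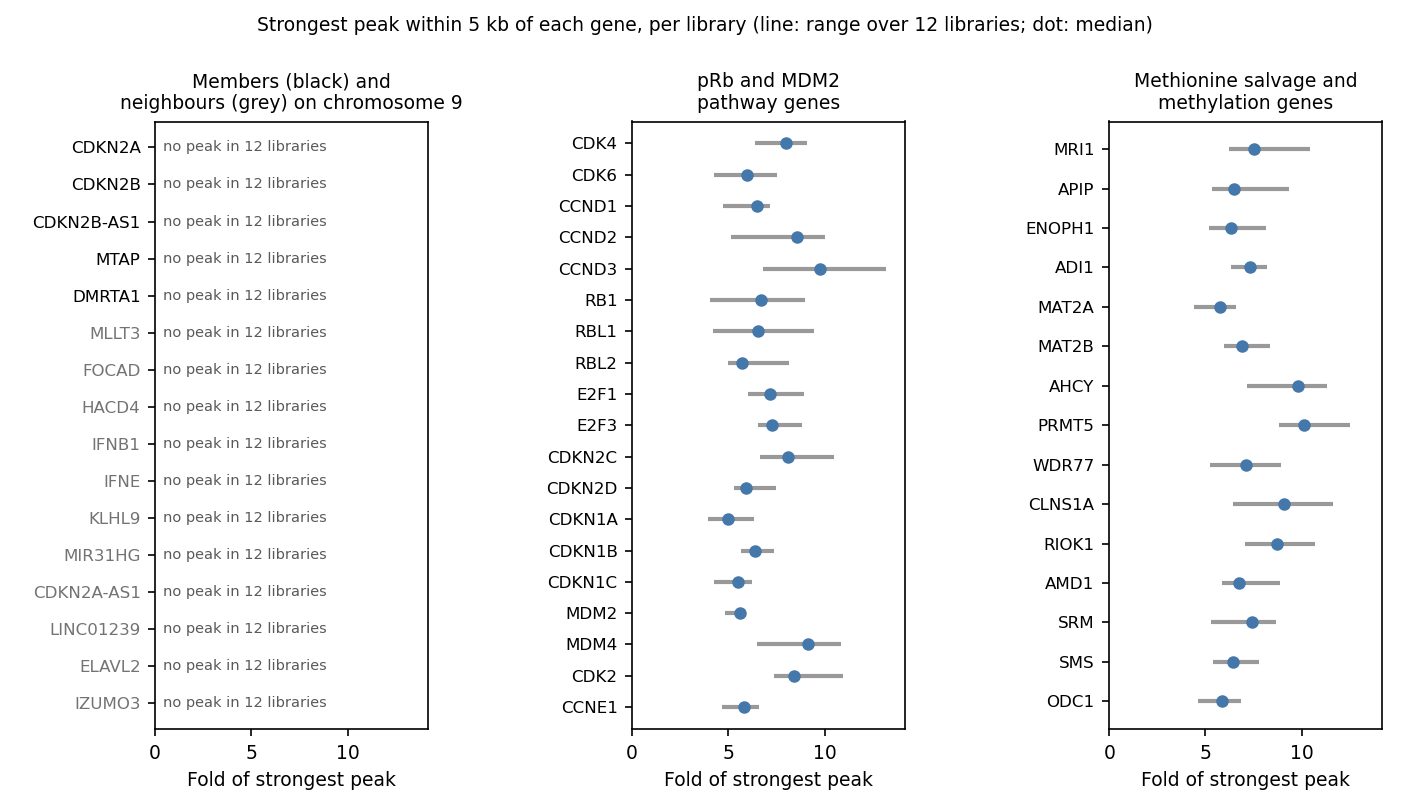
The authors' fold over background of the strongest peak within 5 kb of each gene (horizontal axis), as the range over libraries with such a peak (line) and the median (dot), for the members and 11 neighbours (left), 19 genes of the pRb and MDM2 pathways (middle) and 15 genes of methionine salvage and methylation (right). No member or neighbour has a value. All 34 other genes, with medians from 4.98 to 10.1, have a peak in 12 of 12 libraries, as do 70.7% of all coding genes.

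Regions within the extended spans of these genes were tested for presence by phenotype and by treatment. Fisher's exact test, two-sided, set 6 libraries against 6 for each of the 9507 regions that 5 to 7 lists held, and p-values were adjusted by the Benjamini-Hochberg method. Over the genome 0 regions passed an adjusted p of 0.05 by phenotype or by treatment. At an unadjusted p under 0.05, 8.71% were more frequent in resistant and 2.7% in parental libraries by phenotype, and 0.0526% in treated and 1.34% in untreated libraries by treatment. The 5 members had 0 regions to test. The pRb and MDM2 list had 8 testable regions, of which 0 passed and 2, at CDK6 and CCND1, had an unadjusted p under 0.05 by phenotype. The methionine list had 7, of which 0 passed and 1, at SRM, had an unadjusted p under 0.05 by phenotype, and by treatment the count was 0 in both lists. With peaks of a -log10 q of 3 or more, 307 of 6568 regions (4.67%) passed by phenotype, 279 of them more frequent in resistant and 28 in parental libraries, and 0 passed by treatment. The smallest adjusted p by phenotype in this Fisher's exact test was 0.0463, against 0.0807 with all peaks. With the -log10 q minimum 4 regions of the pRb and MDM2 list and 4 of the methionine list could be tested and 0 passed. Of these 1, at CDK6, had an unadjusted p under 0.05 by phenotype, while the members and neighbours had 0 to test.

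The borders of the stretch were of an unusual kind. The lower border, a region of 230 bp inside SLC24A2 (20160597 to 20160826), was called in 12 of 12 libraries with a fold between 27.9 and 37.2. Ranked by -log10 q, it was within the top 0.192% of each list. The higher border, a region of 96 bp inside LOC101929563 (23515829 to 23515924), was called in 7 libraries with a fold between 24.4 and 37.6. By the same ranking it was within the top 0.373% of those lists. Both had the same start and end in every list that held them, as did 0.567% of the 43194 regions called in 6 or more libraries. Such regions had a median fold of 14.3 against 4.77 for the others. Without them the nearest regions called in 6 or more libraries lay 1.88 Mb below MTAP, inside SLC24A2, and 4.27 Mb above DMRTA1, 6.80 Mb apart, an alternative chosen after these borders had been seen. The first of these 2 regions was called in 12 libraries and the other in 6, just at the threshold, while the higher border with 7 libraries was just inside it and the region from 26614027 to 26614140, with 4, just outside.

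The groups were compared by the length of the peak-free stretch that held CDKN2A in each library. It was 3.36 Mb in all 3 parental untreated and all 3 parental treated libraries. In resistant untreated libraries it was 4.20, 6.70 and 6.21 Mb, and in resistant treated libraries 6.21, 3.36 and 6.56 Mb. The lower end was the same in all 12 libraries, and only the higher end moved. Thus 5 of 6 resistant libraries lay above every parental one, and resistant treated replicate 2 had the parental length.

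Means were 3.36 ± 0 Mb (SD, n = 3) in parental untreated, 3.36 ± 0 Mb (SD, n = 3) in parental treated, 5.70 ± 1.32 Mb (SD, n = 3) in resistant untreated and 5.37 ± 1.76 Mb (SD, n = 3) in resistant treated libraries. On the log10 scale resistant exceeded parental libraries by 0.204 (two-sided exact permutation p = 0.02 within treatment, adjusted p = 0.06 over 3 tests), which did not pass after adjustment. Treated minus untreated was -0.0177 (exact permutation p = 0.7, adjusted p = 0.7). For the difference of the treatment effects between phenotypes the value was -0.0354 (exact permutation p = 0.7, adjusted p = 0.7). The smallest p this design allows is 0.005.

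The smallest peak width of the lists also differed by phenotype, from 67 to 87 bp in parental and from 94 to 124 bp in resistant libraries. Width and phenotype can therefore not be told apart here, and whether width made the difference in length was not tested. The higher border peak is 96 bp wide. Its 7 libraries had smallest widths between 67 and 94 bp, and the 5 libraries without it between 98 and 124 bp, so each of the 5 lists held no peak as narrow as those 96 bp anywhere in the genome. With peaks of at least 124 bp only, the phenotype difference was 0.00527 (exact permutation p = 1). Without regions of the same bounds in every list it was 0.00264 (exact permutation p = 0.75). Lengths were then from 4.45 to 6.97 Mb in parental and from 4.36 to 6.93 Mb in resistant libraries. Both filters remove the higher border peak by construction, so the smaller differences carry no test of what made the first. In the region test the higher border was present in 6 of 6 parental and 1 of 6 resistant libraries (Fisher's exact p = 0.0152, adjusted p = 0.133) and in 4 treated and 3 untreated libraries (Fisher's exact p = 1, adjusted p = 1).

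**Figure D4:**
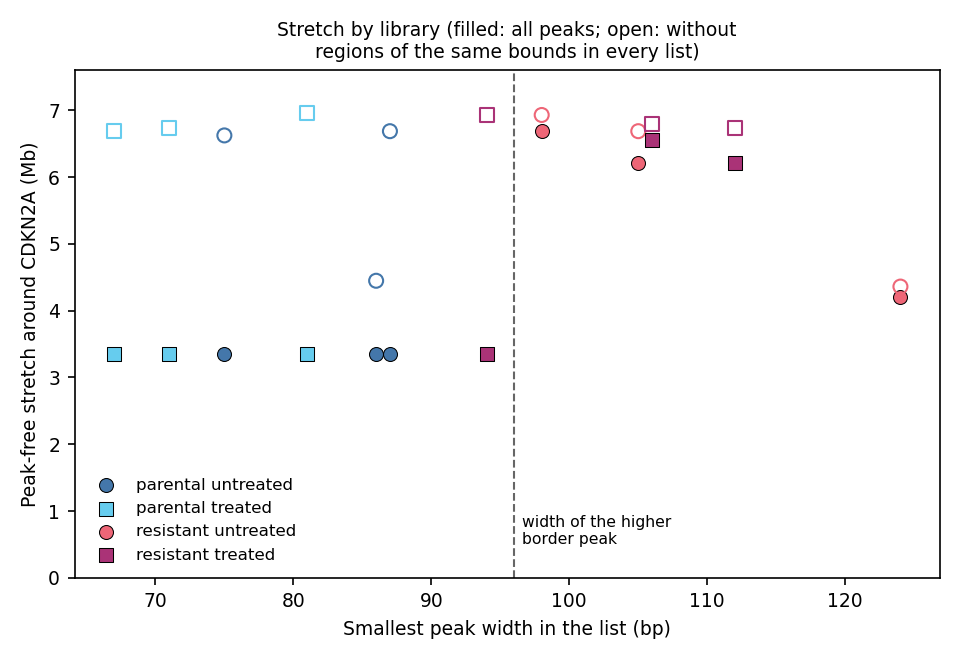
Length of the peak-free stretch around CDKN2A in Mb (vertical axis) against the smallest peak width of the list in bp (horizontal axis), 1 pair of points per library, coloured by group, with all peaks (filled) and without regions of the same bounds in every list (open); the dashed line is the 96 bp width of the higher border peak. With all peaks the 7 libraries left of the line lie at 3.36 Mb and the 5 right of it between 4.20 and 6.70 Mb, and the open points lie between 4.36 and 6.97 Mb on both sides.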

How the data were processed

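ATAC-seq reads of 12 libraries had been aligned to hg38 with Bowtie2 2.1.0 by the authors, mitochondrial, duplicate and non-unique reads removed, and broad peaks called per library with MACS2 in paired-end mode. The MACS2 version and any control or blacklist are not given in the sources used here. The deposited lists give a whole-number score, a fold over local background (a ratio) and the -log10 of p- and q-values; these were used within a list only. Lists held between 45748 and 62414 peaks on chromosomes 1 to 22 and X, and 0.892% of peaks lay elsewhere. Genes and windows came from RefSeq (GRCh38.p14), with windows for 5 of 5 members.

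Peaks overlapping by at least 1 bp were merged into regions. One value per library was compared by exact permutation tests with Python 3.11.15, numpy 2.4.6 and scipy 1.17.1, with labels permuted within strata. These and the Fisher test were tested on simulated data. DESeq2, named in the study's methods, needs counts and was not run. Named genes were the members, the coding genes of the stretch and the nearest neighbours, both pathway lists and the 8 most similar genes. One gene of a pathway list is not reported here and enters none of its counts. The members and lists were chosen with earlier results of these data known. Alternatives were a -log10 q minimum of 3, the 45748 best-ranked peaks of each list, wider peaks, other extensions, windows and numbers of libraries, 50% coverage of a region, a block for replicate number, and each library left out.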

Additional observations from a re-analysis of the deposited data

How the results depend on the processing

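That no member had a peak held with 0 and 20 kb extensions, with a -log10 q minimum of 3 and with 45748 peaks per list, and the number of peaks within the locus was 0 in every library under all alternatives tried. The 3.36 Mb between recurrent regions held with each library left out, and became 6.73 Mb where 12 libraries were asked for and 6.80 Mb without regions of the same bounds in every list, an exclusion chosen after seeing the data. Empty windows made up 24.4% at 50 kb, 8.01% at 200 kb and 36.6% with -log10 q of at least 3. With -log10 q of at least 3, 307 regions passed by phenotype, 279 of them more frequent in resistant libraries. Their smallest adjusted p by Fisher's exact test was 0.0463, just under 0.05. The higher border was not among them (adjusted p = 0.0705 by Fisher's exact test). The lists covered between 13.8 and 25.5 Mb in parental and between 21.3 and 33.7 Mb in resistant libraries. Whether this touched the counts was not tested.

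The phenotype difference in log10 length lay between 0.178 and 0.250 with 1 library left out (exact permutation p between 0.005 and 0.04). It was 0.00527 with peaks of at least 124 bp and 0.00264 without regions of the same bounds, and both filters remove the higher border by construction. With a replicate block it was 0.204 (exact permutation p = 0.0625; smallest possible 0.0313). The correlation of deviations between libraries of the same replicate number lay between -0.0571 and 0.0767 over 18 pairs. Over the 36 pairs of different number it lay between -0.0593 and 0.0531. No pairing by number was thus detected, though low correlations cannot show that the numbers carry none. The treatment difference ranged from -0.0487 to 0.0288 with 1 library left out, the sign turning without resistant untreated replicate 2 (0.00192) or resistant treated replicate 2 (0.0288). It was 0.0626 with wide peaks and 0.0662 without regions of the same bounds, and no exact permutation p of these was under 0.05. The interaction ranged from -0.0974 to 0.0577, with the sign turned without the same 2 libraries (0.00385 and 0.0577). The lists hold no read counts, and accessibility too weak for a call is not limited by them.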
